A study of Mus musculus with 2 samples.

Results

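Decorin (Dcn) and 7 other genes of secreted matrix proteins (Bgn, Postn, Tgfbi, Sparc, Smoc2, Fn1 and Htra1) were followed through the cells of newborn mouse epidermis. These 8 genes, of 27998 genes in both count matrices, were chosen by symbol with their levels in these cells already known, so every level of theirs is given as a description and none was tested. Skin of male C57BL/6J mice at postnatal day 0 was soaked overnight so that epidermis could be lifted off the dermis, and the epidermal cells were filtered and cleared of dead cells before droplet-based 3′ sequencing of single cells. Both mice (n = 2, each its own library) carried a whole-body knockout (KO) of Chrm3, the muscarinic acetylcholine receptor M3, and wild-type animals were not analysed here, so nothing below separates the genotype from newborn epidermis in general.

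All 8 genes encode proteins that are secreted into the space around cells. Decorin and biglycan (Bgn) are small leucine-rich proteoglycans that bind collagen, periostin (Postn) and the TGF-β-induced protein (Tgfbi) are built from fasciclin domains and bind other matrix proteins and integrins, Sparc and Smoc2 are calcium-binding matricellular proteins of the same family, fibronectin (Fn1) is an integrin ligand, and Htra1 is a serine protease that cleaves matrix proteins. In skin, decorin is best known as a product of dermal fibroblasts, and keratinocytes (KCs) are better known for the basement membrane that they lay down.

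The genes lie on 8 chromosomes of mouse build GRCm38 (GENCODE M21). Dcn spans chr10:97479609-97518143 on the plus strand and Bgn chrX:73483602-73495933 on the plus strand. Postn spans chr3:54361109-54391037 (plus), Tgfbi chr13:56609523-56639562 (plus), Sparc chr11:55394500-55423183 (minus), Smoc2 chr17:14279506-14404790 (plus), Fn1 chr1:71585520-71653200 (minus) and Htra1 chr7:130936111-130985660 (plus). Annotated genes on the opposite strand overlap Smoc2 (4930474M22Rik), Fn1 (Apol7d) and Htra1 (Fgfr2), and whether the counting used strand is not given in the sources used here, so the values of those 3 genes are less certain.

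The RefSeq promoter table of build GRCm38.p6 held 5 of the 8 genes (not Dcn, Smoc2 or Fn1). Upstream sequence is shown for the fasciclin-domain pair, which shared its high levels in basal-like KCs, and for Bgn, whose levels ran apart from theirs. Each is the plus strand, with motif matches in capitals: a TATA box in Postn (chr3:54360857-54361106, the entry at the GENCODE start of the gene), a GC box in Tgfbi (chr13:56609336-56609522, cut where the annotated exon begins) and GC boxes on the reverse strand in Bgn (chrX:73483351-73483600), where the matches at the 3′ end overlap each other.
Postn: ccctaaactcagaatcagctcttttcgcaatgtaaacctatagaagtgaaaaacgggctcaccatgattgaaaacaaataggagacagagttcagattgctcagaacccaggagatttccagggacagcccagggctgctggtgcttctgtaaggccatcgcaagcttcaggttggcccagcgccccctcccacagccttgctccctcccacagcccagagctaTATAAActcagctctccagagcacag
Tgfbi: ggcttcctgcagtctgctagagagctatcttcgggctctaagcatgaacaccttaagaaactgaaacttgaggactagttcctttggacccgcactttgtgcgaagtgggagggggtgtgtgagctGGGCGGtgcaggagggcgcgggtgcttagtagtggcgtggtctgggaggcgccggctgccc
Bgn: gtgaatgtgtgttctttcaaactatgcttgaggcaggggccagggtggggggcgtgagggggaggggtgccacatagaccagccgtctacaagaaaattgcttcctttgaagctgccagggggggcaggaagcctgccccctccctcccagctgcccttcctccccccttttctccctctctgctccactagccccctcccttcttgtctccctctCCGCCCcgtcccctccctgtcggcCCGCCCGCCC
The motifs were searched on both strands. The TATA box (TATAAA) was in 12.4% of 32851 promoter windows of 250 bases and the GC box (GGGCGG) was in 32.7%. The AP-1 motif (TGANTCA) was in 6.75% and the E-box (CACGTG) was in 6.02%. The Postn window held 1 TATA box and no GC box, and 52.0% of its bases were G or C. The Tgfbi window held 1 GC box and no TATA box (59.4% G or C), and the Bgn window 3 GC boxes and no TATA box (64.4%). The AP-1 motif and the E-box were in none of these windows.

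After filtering, 7607 of 10816 barcodes of mouse 1 and 11881 of 15867 of mouse 2 were kept (70.3% and 74.9%), with a median of 10480 and 10577 unique molecular identifiers (UMIs) per cell. The 8 genes were left out, with 97 other matrix genes, when cells were grouped into 25 clusters, of which 22 took 17 names from markers and 3 stayed unnamed. Names end in -like because they rest on markers and were rebuilt here. Where clusters share a name, their leading gene tells them apart. Chrm3 was at 13 and 19 UMIs in the kept cells of mouse 1 and mouse 2, too few to check the labels. The mice shared 127 barcodes, 34 of them among kept cells. A level is given in CPM, the UMIs of a gene over all UMIs of a cluster's cells in 1 mouse, scaled to the same total everywhere, with mouse 1 first. A share of cells is given after every cell was thinned to 3000 UMIs, which 19183 of 19488 cells reached, and is the mean of the mice unless both are given.

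**Figure D1:**
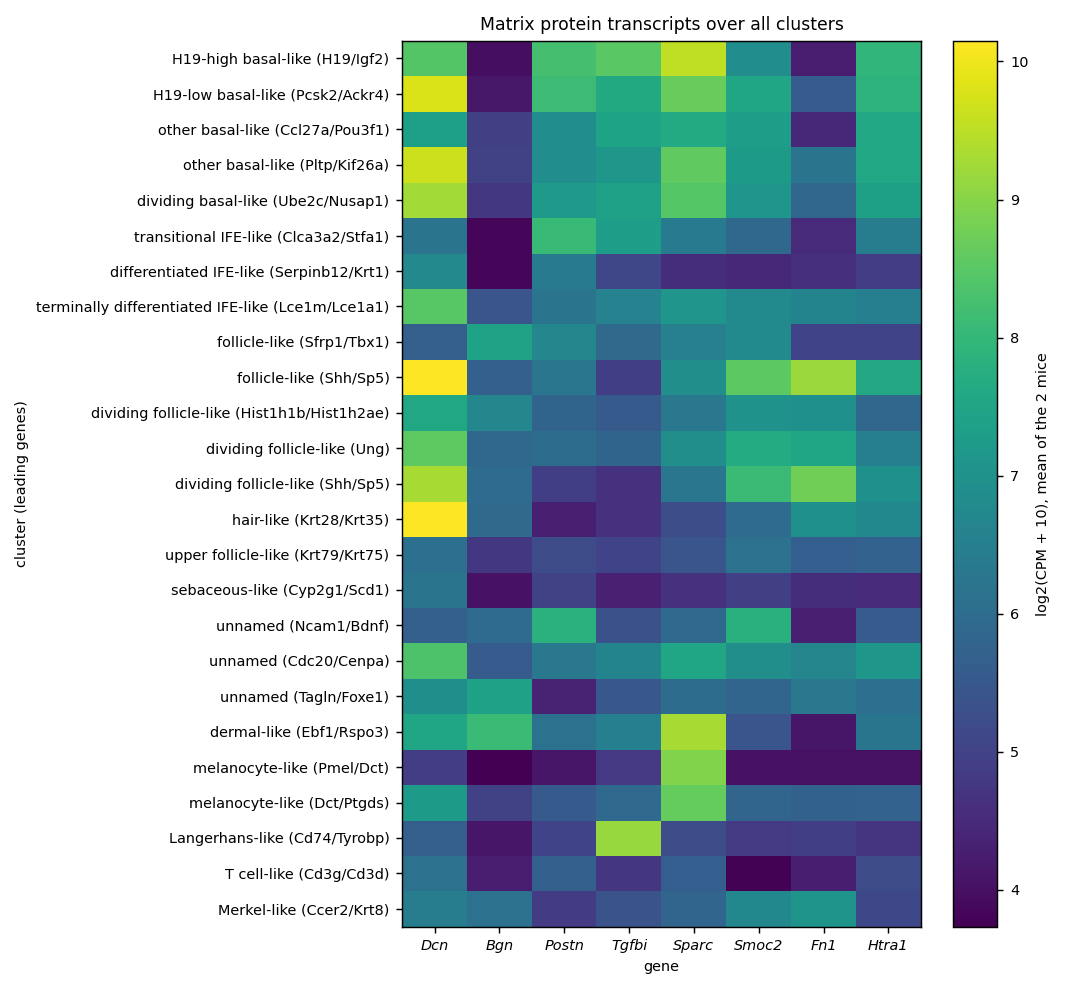
Levels of the 8 genes as log2(CPM + 10), the mean of both mice, in each of the 25 clusters (rows clusters, columns genes, colour the level). Dcn was high in hair-like, Shh-led follicle-like and H19-low basal-like cells, Bgn in dermal-like and Sfrp1-led follicle-like cells, and Postn, Tgfbi and Sparc in H19-high basal-like cells.

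Dcn was highest in KC clusters of the hair follicle and the basal layer. Its level was 1069 and 1184 CPM in the hair-like cluster led by Krt28 and Krt35 (1126 ± 81.6, SD, n = 2) and 1003 and 1234 CPM in the Shh-led follicle-like cluster (1118 ± 163). Next came H19-low basal-like cells at 717 and 1035 CPM (876 ± 225), then Pltp-led basal-like cells at 704 and 905 CPM (805 ± 142). The mice overlapped between each of these neighbours, so the ranges alone did not separate neighbours. Every cluster holds the same mice, and within each mouse Shh-led follicle-like cells lay above H19-low and those above Pltp-led basal-like cells. Hair-like and Shh-led follicle-like cells changed places between the mice. This order was not tested. Clusters further apart in the order did not all overlap. Both hair-like values lay above both values of H19-low and of Pltp-led basal-like cells. Both Shh-led follicle-like values lay above those of Pltp-led basal-like cells. Dividing basal-like cells had 498 and 698 CPM and the Shh-led dividing follicle-like cells 524 and 734 CPM, which also overlapped.

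The basal-like states did not share 1 level of Dcn. H19-high basal-like cells held 255 and 414 CPM (334 ± 112), below both values of H19-low basal-like cells, and Ccl27a-led basal-like cells 127 and 178 CPM. Transitional IFE-like cells (interfollicular epidermis leaving the basal layer) held 31.4 and 95.5 CPM and differentiated IFE-like cells 38.3 and 156 CPM. The 115 terminally differentiated IFE-like cells were higher than both, at 281 and 409 CPM, but slightly below the 286 and 424 CPM over all kept cells. Within the follicle, the Sfrp1-led follicle-like cluster held only 26.9 and 56.0 CPM. The 2 follicle-like clusters without division thus lay at the top and near the bottom of the order.

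**Figure D2:**
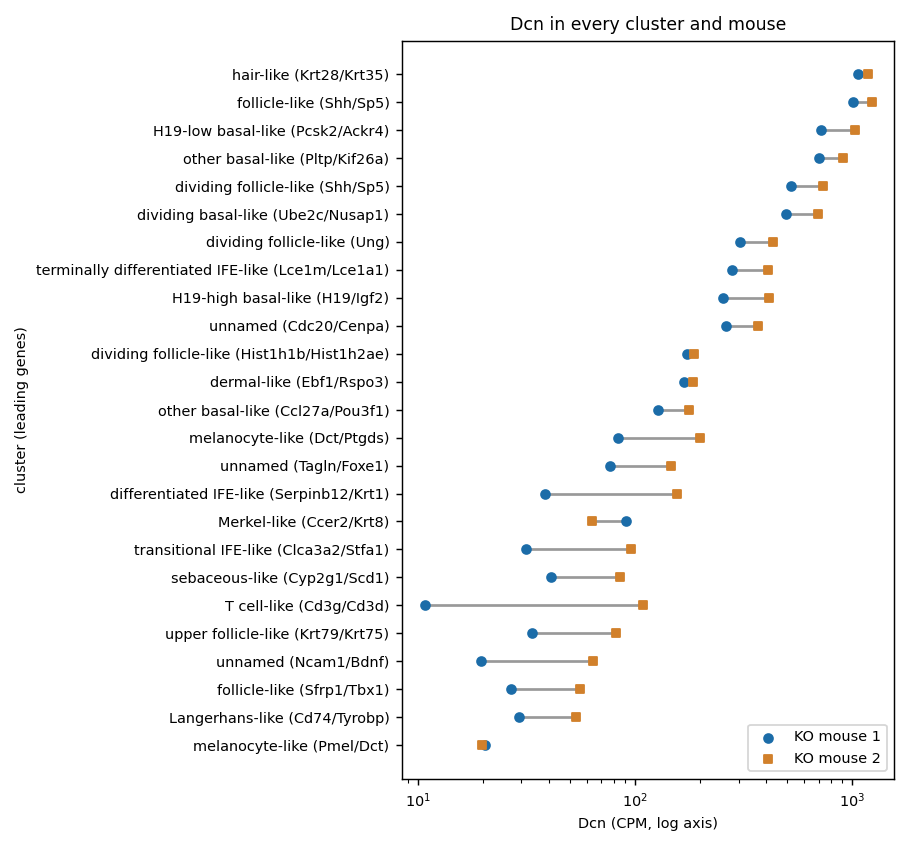
Dcn in each cluster, in CPM on a log axis, with 1 point for each mouse. Hair-like, Shh-led follicle-like and H19-low basal-like cells lie at the top, dermal-like cells at 167 and 184 CPM in the middle, and Pmel-led melanocyte-like cells at 20.3 and 19.8 CPM at the bottom.

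Thinned to equal depth, 71.3% and 75.4% of hair-like cells had a Dcn UMI, as did 63.7% and 75.9% of H19-low basal-like cells and 41.1% and 50.5% of H19-high basal-like cells. In Pmel-led melanocyte-like cells, which should lack the gene, the shares were 3.05% and 6.41%, with a median depth of 8274.5 UMIs before thinning against 8008 in H19-low basal-like cells. Shares near these were read as background, but other clusters outside the KCs had higher mean Dcn. It was 29.1 and 53.5 CPM in Langerhans-like, 10.7 and 109 CPM in T cell-like and 83.3 and 199 CPM in Dct-led melanocyte-like cells. Transitional IFE-like, differentiated IFE-like and Sfrp1-led follicle-like cells overlapped in CPM with T cell-like cells, so their Dcn was not told apart from background. Dermal-like (167 and 184 CPM), Ccl27a-led basal-like (127 and 178 CPM) and Hist1h1b-led dividing follicle-like cells (173 and 186 CPM) lay within the range of Dct-led melanocyte-like cells. Their Dcn was not told apart from that cluster's level. Cells of a cluster were unequal. The tenth of cells with most Dcn held 37.1% of the thinned Dcn UMIs in H19-low basal-like cells, 37.9% in hair-like, 44.0% in Shh-led follicle-like and 49.6% in H19-high basal-like cells. Of all Dcn UMIs in kept cells, hair-like cells gave 19.7%, dividing follicle-like cells 18.0%, H19-low basal-like cells 13.2% and dermal-like cells 0.119% (means of both mice). These classes were 4.85%, 17.0%, 8.45% and 0.554% of the cells, so the share of dividing follicle-like cells was near their share of cells. Shares of cells do not allow for depth, which had a median of 13980.5 UMIs in dividing follicle-like cells. By CPM, dividing follicle-like cells held 262 and 334, below the 286 and 424 CPM over all kept cells.

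Dermal-like cells, 108 in all (40 and 68) and 0.554% of the cells, carried the fibroblast genes Col1a2 (703 and 520 CPM), Col3a1 (799 and 581 CPM) and Pdgfra (191 and 184 CPM), and less of Col1a1 (297 and 48.0 CPM) and Lum (76.5 and 16.0 CPM). Their Dcn was 167 and 184 CPM, below both values of hair-like, H19-low and H19-high basal-like cells. On the log2(CPM + 10) scale the difference from H19-low basal-like cells was -2.03 in mouse 1 and -2.43 in mouse 2. Only 27 of these 108 cells held any Dcn UMI, 104 UMIs in all, and 6 cells held 76 of them. Of those 6, 5 had a doublet score of 0.2 or more and 70 to 195 UMIs of Krt14, a basal keratin. The other, from mouse 1, had 12 Dcn UMIs, 134 UMIs of the 5 fibroblast genes and no Krt14 UMI.

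Without the 16 dermal-like cells scoring 0.2 or more, Dcn was 150 CPM in mouse 1 and 44.4 CPM in mouse 2, while Sparc and Bgn, summed over both mice, stood at 648 and 314 CPM. The value of mouse 1 rested on 24 Dcn UMIs, 12 of them in the 1 cell without Krt14 described above. That cell also gave 134 of the 432 UMIs of the 5 fibroblast genes in the dermal-like cells of mouse 1. The 16 cells left out held 390 CPM of Dcn and 7262 CPM of Krt14. The median depth of dermal-like cells was 4179.5 UMIs, the lowest of the 25 clusters. Epidermis was separated from dermis before sequencing, and cells of the dermis itself were not analysed here. The dermal-like cluster was led by Ebf1, Rspo3, Meg3 and Rspo1, and which kind of dermal cell it held was not tested. Its levels need not be those of dermal fibroblasts in general.

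The fibroblast genes were far lower in KC clusters than in dermal-like cells, with Lum in hair-like cells as the exception. H19-low basal-like cells held 717 and 1035 CPM of Dcn beside 1.30 and 0.231 CPM of Col1a1, 3.69 and 3.69 CPM of Col1a2, and no Pdgfra UMI. Col1a2 was higher in dividing basal-like (17.9 and 13.4 CPM) and dividing follicle-like cells (15.5 and 15.4 CPM). Lum was 8.51 and 13.5 CPM in hair-like cells, against 76.5 and 16.0 CPM in dermal-like cells, and gave 176 UMIs there against 22. The 5 fibroblast genes gave 0.513 UMIs for each 100 Dcn UMIs in H19-low basal-like cells, 0.400 in H19-high basal-like, 0.850 in Shh-led follicle-like, 1.24 in hair-like and 43.5 in Sfrp1-led follicle-like cells. In dermal-like cells the figure was 902. Among 1591 H19-low basal-like cells thinned to 3000 UMIs, 1139 had a Dcn UMI, 14 had Col1a2, 2 had Col1a1, and none had Lum or Pdgfra.

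**Figure D3:**
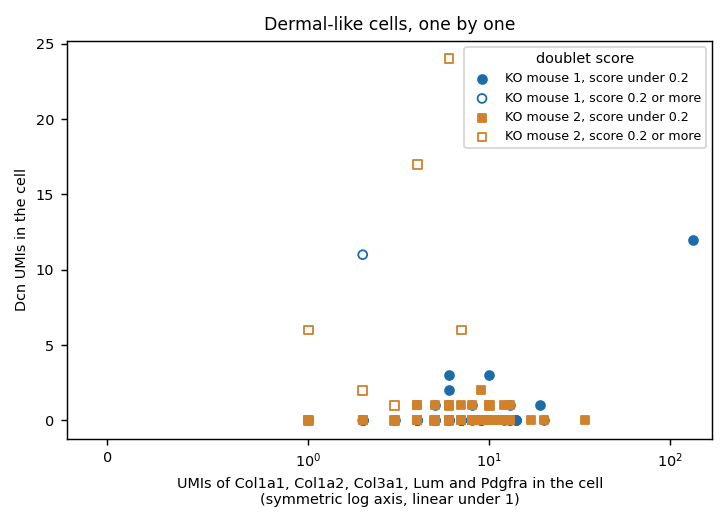
Each of the 108 dermal-like cells by its UMIs of 5 fibroblast genes and its Dcn UMIs, with cells of doublet score 0.2 or more marked. Only 27 of the 108 cells lie above 0 on the Dcn axis, and 5 of the 6 cells with most Dcn were marked.

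Bgn, the other small leucine-rich proteoglycan, had another pattern. It was highest in dermal-like cells, at 330 and 203 CPM (266 ± 90.1, SD, n = 2), followed by Sfrp1-led follicle-like cells at 169 and 159 CPM and an unnamed cluster led by Tagln and Foxe1 at 147 and 175 CPM. Hist1h1b-led dividing follicle-like cells held 93.3 and 95.9 CPM, above hair-like cells at 50.5 and 53.4 CPM and Shh-led follicle-like cells at 44.0 and 39.6 CPM. In H19-high basal-like cells it was 5.93 and 5.57 CPM and in H19-low basal-like cells 7.17 and 8.42 CPM. Pmel-led melanocyte-like cells, the lowest cluster for Bgn, held 3.38 and 3.23 CPM. Langerhans-like cells held 7.59 and 7.44 CPM and T cell-like cells 5.37 and 12.1 CPM, and Dct-led melanocyte-like cells lay above all of these. The values of both H19-named basal-like states lay within the T cell-like range, so their Bgn was not told apart from background. Dermal-like cells gave 1.40% of Bgn UMIs, follicle-like cells 23.8% and dividing follicle-like cells 36.2%, beside 0.554%, 12.1% and 17.0% of the cells.

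Postn and Tgfbi shared the basal layer but not what lay beyond it. Postn, which binds collagen and integrins, stood at 316 and 281 CPM in H19-high basal-like cells (299 ± 24.7), 270 and 272 CPM in H19-low basal-like cells and 255 and 269 CPM in transitional IFE-like cells. It was lower in differentiated IFE-like cells (70.0 and 78.3 CPM), Sfrp1-led follicle-like cells (91.6 and 97.5 CPM) and Shh-led follicle-like cells (61.8 and 71.7 CPM). Hair-like cells, among the highest for Dcn, held 6.29 and 13.1 CPM of Postn. Dermal-like cells held 76.5 and 45.3 CPM.

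Tgfbi was highest outside the KCs, in Langerhans-like cells, at 588 and 538 CPM. Among KCs it was highest in H19-high basal-like cells, at 402 and 308 CPM (355 ± 66.6), above both values of H19-low basal-like cells at 210 and 163 CPM. Transitional IFE-like cells held 150 and 144 CPM, differentiated IFE-like cells 25.8 and 22.5 CPM, Sfrp1-led follicle-like cells 53.1 and 51.0 CPM, Shh-led follicle-like cells 19 and 22 CPM and hair-like cells 11.7 and 18.5 CPM. Dermal-like cells differed between mice, at 115 and 45.3 CPM.

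Sparc, a collagen-binding protein, stood at 727 and 750 CPM in H19-high basal-like cells (738 ± 16.8), with a UMI in 84.5% and 84.6% of thinned cells, against 0 and 2.74% of sebaceous-like cells (median depths before thinning 11108 and 17328 UMIs). Dermal-like cells held 761 and 483 CPM (622 ± 197), which spans the values of H19-high basal-like cells, and Pmel-led melanocyte-like cells 475 and 490 CPM. H19-low basal-like cells, at 382 and 405 CPM, were well below H19-high basal-like cells in both mice. Sparc was 60.9 and 83.0 CPM in transitional IFE-like cells and 13.0 and 14.2 CPM in differentiated IFE-like cells, the lowest mean of the clusters, within the range of sebaceous-like cells. The 115 terminally differentiated IFE-like cells were above both, at 111 and 140 CPM, but below the 166 and 205 CPM over all kept cells. Hair-like cells held 22.6 and 35.1 CPM.

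Smoc2, a relative of Sparc found in basement membranes, was instead highest in Shh-led follicle-like cells, at 404 and 317 CPM (360 ± 61.4), and in the Shh-led dividing follicle-like cells, at 294 and 240 CPM. H19-low basal-like cells held 200 and 151 CPM, H19-high basal-like cells 127 and 90.7 CPM, and Sfrp1-led follicle-like cells 110 and 94.6 CPM. Differentiated IFE-like cells held 9.73 and 14.6 CPM. Dermal-like cells were low in Smoc2, at 28.7 and 37.3 CPM. In T cell-like cells it was at 0 UMIs in mouse 1 and 3 UMIs in mouse 2.

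Fn1 was highest in the Shh-led follicle-like cluster, at 572 and 577 CPM (575 ± 3.12), with 435 and 404 CPM in the Shh-led dividing follicle-like cells. Hair-like cells held 126 and 101 CPM. Sfrp1-led follicle-like cells held 22.1 and 22.9 CPM and H19-high basal-like cells 5.93 and 11.3 CPM. Fibronectin is a standard fibroblast product, and dermal-like cells held 9.57 and 5.33 CPM, below both values of hair-like cells. These levels rest on very few counts, with 1 Fn1 UMI left in 101 dermal-like cells after thinning. They overlapped H19-high basal-like and Pmel-led melanocyte-like cells, so the place of dermal-like cells among the low clusters was not resolved. The 38 Merkel-like cells gave 206 and 38.2 CPM, too far apart to place.

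Htra1 differed little among resting basal-like cells. It was 272 and 209 CPM in H19-high basal-like cells (240 ± 44.8), 259 and 194 CPM in H19-low basal-like cells, which overlapped. The Ccl27a-led (191 and 163 CPM) and Pltp-led (183 and 175 CPM) basal-like clusters also overlapped, and both lay below the H19-named pair. Shh-led follicle-like cells held 174 and 192 CPM, hair-like cells 99.9 and 91.2 CPM and transitional IFE-like cells 80.7 and 73.6 CPM. Sfrp1-led follicle-like cells were low, at 18.9 and 26.4 CPM, as were differentiated IFE-like cells at 14.6 and 25.0 CPM. In dermal-like cells it was 95.7 and 34.7 CPM.

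**Figure D4:**
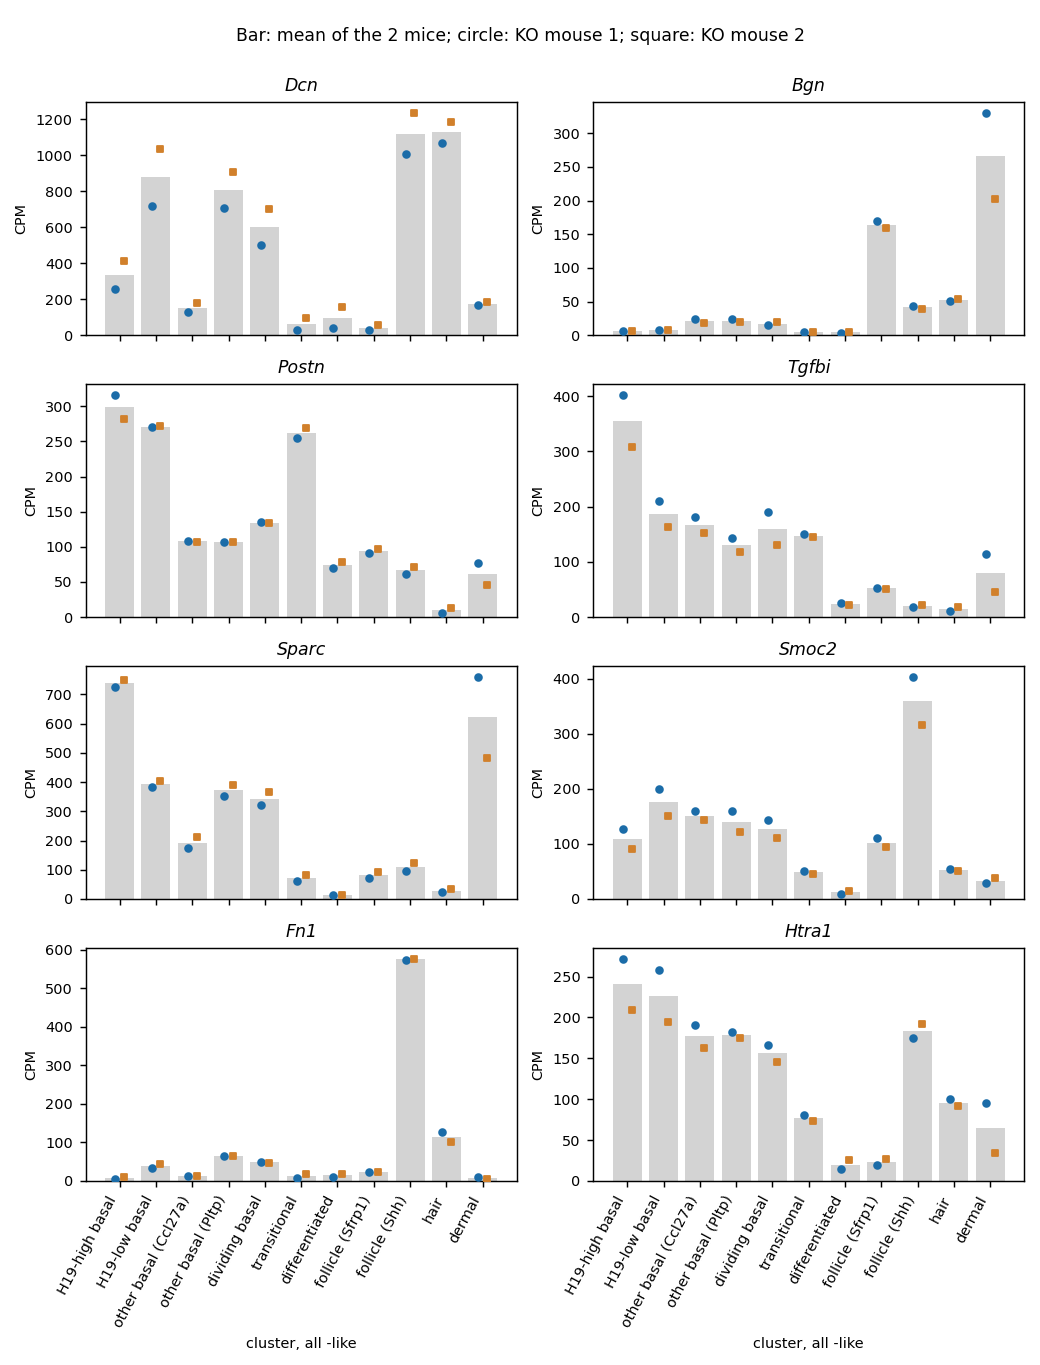
Levels of the 8 genes in CPM on a linear axis, 1 panel a gene, with bars for the mean and 1 point a mouse, in basal-like, IFE-like, follicle-like, hair-like and dermal-like cells. Dcn, Smoc2 and Fn1 were higher in H19-low than in H19-high basal-like cells and Tgfbi and Sparc lower, in both mice.

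Set against each other within each mouse, the 2 resting basal-like states named by H19 differed most in Dcn and Fn1. On the log2(CPM + 10) scale, H19-low minus H19-high was 1.46 and 1.30 for Dcn, 1.42 and 1.36 for Fn1 and 0.62 and 0.68 for Smoc2. It was -0.90 and -0.88 for Tgfbi and -0.91 and -0.87 for Sparc. Postn (-0.22 and -0.05), Htra1 (-0.07 and -0.10) and Bgn (0.11 and 0.24) were close to 0. The Fn1 difference was between low levels, 32.6 and 44.9 CPM in H19-low and 5.93 and 11.3 CPM in H19-high basal-like cells. Dct-led melanocyte-like cells, outside the KCs, held 31.7 and 53.5 CPM of Fn1, a range that covers the H19-low values. With cells under 5% mitochondrial UMIs, which leaves 17 H19-high basal-like cells of mouse 1, the mean difference for Dcn was 2.29 in place of 1.38.

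The Shh-led and Sfrp1-led follicle-like clusters differed more. On the same scale, Shh-led minus Sfrp1-led was 4.18 and 4.16 for Fn1, 4.78 and 4.24 for Dcn, 2.67 and 2.47 for Htra1 and 1.79 and 1.64 for Smoc2. It was -1.73 and -1.77 for Bgn, -1.12 and -0.93 for Tgfbi and -0.50 and -0.40 for Postn, and for Sparc 0.37 and 0.38. Pooled, follicle-like cells minus the resting basal-like classes came to 2.64 and 2.56 for Bgn, 3.00 and 2.84 for Fn1, -2.34 and -2.04 for Tgfbi and -2.20 and -1.98 for Sparc. For Dcn the pooled difference was near 0 (0.00 and -0.09), although its level was far apart in the clusters pooled. The mean for Fn1, 2.92, was 3.65 without integration of the mice and 2.25 under 5% mitochondrial UMIs.

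Differentiated IFE-like cells were lower than the average of the 3 resting basal-like classes in all 8 genes and both mice. The share of all genes that were lower in both mice is not given here, so this count is description only. Dcn in differentiated IFE-like cells and Bgn in the H19-named basal-like states were not told apart from background. Against H19-high basal-like cells alone (5.93 and 11.3 CPM), Fn1 was higher in them, at 11 and 17.7 CPM. The difference was -4.19 and -4.22 for Sparc, -3.33 and -2.51 for Htra1, -3.10 and -2.44 for Smoc2, -3.10 and -1.84 for Dcn and -2.82 and -2.63 for Tgfbi. It was smaller for Postn (-1.47 and -1.27), and for Bgn (-0.65 and -0.43) and Fn1 (-0.55 and -0.41), which were already low in basal-like cells.

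**Figure D5:**
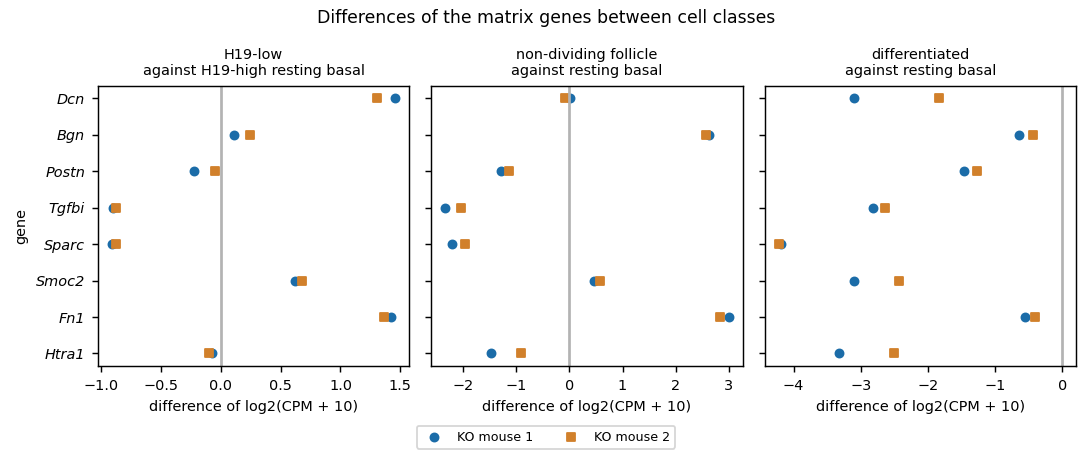
Differences of log2(CPM + 10) for the 8 genes, 1 point a mouse, for H19-low minus H19-high basal-like cells, follicle-like minus resting basal-like cells and differentiated IFE-like minus resting basal-like cells. In the last of these all points lie below 0, from -0.41 for Fn1 to -4.22 for Sparc.

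The genes were not always found in the same cells of a cluster. Among H19-low basal-like cells at 3000 UMIs, Tgfbi was detected in 35.6% of cells with a Dcn UMI and 46.7% of cells without one, Fn1 in 11.1% and 2.88%, and Sparc in 61.6% and 60.0%. Pltp-led basal-like cells gave 26.3% and 40.3% for Tgfbi. In Shh-led follicle-like cells, Htra1 was in 47.1% of cells with Dcn and 35.2% of those without, and Postn in 17.4% and 6.42%. These are counts over the pooled cells of 2 mice and carry no test. In H19-low basal-like cells Dcn was higher in mouse 2 (717 and 1035 CPM) and Tgfbi in mouse 1 (210 and 163 CPM). The pooled shares therefore do not separate differences between cells from differences between mice.

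Over the 25 clusters, the profile of Dcn ran closest to that of Htra1 (Pearson r = 0.84 of log2(CPM + 10), means of the mice), then Fn1 (0.64) and Smoc2 (0.62). Smoc2 and Htra1 gave 0.71 and Postn and Tgfbi 0.57, while Postn and Tgfbi each gave -0.28 with Fn1 and Bgn gave -0.23 with Tgfbi. The clusters share 2 libraries and their depth, so these values describe the clusters and have no p.

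Over the 17 named classes, the 4 genes of 9710 most like Dcn were Edaradd (r = 0.88), an adaptor of the ectodysplasin receptor, Ccnd2 (0.87), Wnt6 (0.86) and Hoxb2 (0.85). The profile of Fn1 was closest to Edar (0.97), that receptor itself, then Dennd1a (0.91), Fblim1 (0.91) and Trpv4 (0.90). Among the genes closest to Smoc2 were Frem2 (0.95), Ephb4 (0.94) and the laminin chain gene Lama5 (0.93), and Htra1 was closest to the hemidesmosome integrin Itgb4 (0.95), then Wnt10a (0.95), Ajuba (0.94) and Ppp1r14a (0.93). Bgn was closest to Cpxm1 (0.96), Fam69b (0.95), Mfap2 (0.95) and Csrp2 (0.94), and Sparc to the collagen gene Col16a1 (0.93), Cpne2 (0.93), Abcg2 (0.92) and Ubr2 (0.89). Postn was closest to Wnt16 (0.90), Gnai1 (0.89), Txndc17 (0.89) and Gna14 (0.89), and Tgfbi to Rnase4 (0.89), Fam189a2 (0.88), Khk (0.87) and Atf3 (0.86). Over the 25 clusters in place of the classes, 10 of the 32 pairs found this way were again among the first 4 of their gene, with none of those named for Dcn or Postn. The r of Edaradd with Dcn was then 0.69 and that of Hoxb2 0.62. With Fn1, r was then 0.44 for Fblim1 and 0.59 for Trpv4, against 0.93 for Edar and 0.87 for Dennd1a.

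Dcn and Sparc were higher in mouse 2 almost throughout. Dcn was higher there in 23 of 25 clusters (median ratio 1.44, and 424 against 286 CPM over all kept cells) and Sparc in 24 of 25 (median ratio 1.27, and 205 against 166 CPM). Smoc2 went the other way, higher in mouse 2 in 8 of 25 clusters (median ratio 0.901), while Bgn, Postn, Tgfbi, Fn1 and Htra1 were higher in mouse 2 in 11 to 17 of 25. With 1 library per mouse, animal and library cannot be told apart.

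The other matrix genes were tested on UMI sums per mouse and class. The list of 97, which leaves out collagens and holds some genes seen in published marker lists of these cells (Gpc3, Mfap2, Adamts17, Timp3 and Fras1), had 61 genes with enough counts among 12585 tested by the quasi-likelihood F-test of edgeR, adjusted by Benjamini-Hochberg over all of them. None of the 7 other small leucine-rich proteoglycans on the list had enough counts. The classes came from the same cells, although these genes were left out of the clustering, and each class has n = 2 mice.

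Between the H19-named states, 4 of 61 matrix genes (6.56%) rose in H19-low against H19-high basal-like cells and 12 (19.7%) fell, beside 3.78% and 7.21% of all genes tested. Their median log2 fold change was -0.14, against -0.01 for all genes. The genes that rose include Mfap2 and Adamts17, which had been seen in published marker lists of these cells. The share that rose is therefore not independent of those marker lists. Those that rose were Timp2, an inhibitor of matrix metalloproteinases (log2 fold change 1.57, SE 0.22, adjusted p = 8.73e-05), Mfap2, a microfibril protein (1.45, SE 0.28, adjusted p = 0.00168), Adamts17, a metalloproteinase (1.24, SE 0.36, adjusted p = 0.0328), and Fbln2, a fibulin (0.69, SE 0.19, adjusted p = 0.0233). Of the genes that fell, Efemp1, another fibulin, went from 24.9 to 7.99 CPM (-1.73, SE 0.24, adjusted p = 7.70e-05) and Tinagl1 from 3.56 to 1.06 CPM (-1.83, SE 0.51, adjusted p = 0.0261). Fbn2, a fibrillin, was at 14 UMIs in H19-high and 0 in H19-low basal-like cells, at least 3.80-fold lower against a floor of 3 counts over the group, while the counting interval of the ratio, which also covers the error of the 14 UMIs, reaches 0.370 (edgeR adjusted p = 0.0102). Timp1 was at 28 and 2 UMIs, a ratio of 0.0877 with a counting interval of 0.0101 to 0.348 (edgeR adjusted p = 0.0212). With the mouse as a block, 24 of the 61 genes passed in place of 16, all 16 among them. DESeq2 called 18, of which 14 were among the 16, and 14 of the 16 passed with the shared barcodes left out.

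Between follicle-like and resting basal-like classes, 40 of 61 (65.6%) rose and 11 (18.0%) fell, beside 21.5% and 22.7% of all genes tested. Their median log2 fold change was 0.96, against -0.03 for all genes. Some tested genes, such as Frem1 and Eln, were almost absent from resting basal-like cells and had little room to fall. Mfap2 and Adamts17, seen in published marker lists, were also far higher in follicle-like cells. The share that rose thus depends in part on which genes were listed and tested. Elastic fibre genes rose in 7 of 8 tested, proteases and inhibitors in 7 of 9 and proteoglycans other than the small leucine-rich kind in 7 of 9. Eln, elastin, was at 82 UMIs in follicle-like and 7 in resting basal-like cells (3.66 and 0.131 CPM), none of the 7 in the H19-named classes, a summed ratio of 27.9 with a counting interval of 13.0 to 71.6 (edgeR adjusted p = 3.84e-06). Frem1, a basement membrane protein, was at 111 and 4 UMIs, a summed ratio of 66.1 with a counting interval of 25.1 to 247 (edgeR adjusted p = 5.47e-07). The metalloproteinase gene Adamts20 had a summed ratio of 35.9 (log2 fold change 5.24, SE 0.37, adjusted p = 5.88e-10) and the glypican gene Gpc6 of 19.1 (5.15, SE 0.33, adjusted p = 1.85e-10). Cyr61, a matricellular integrin ligand, fell the most, from 65.6 to 12.7 CPM (-2.58, SE 0.26, adjusted p = 1.01e-07), followed by Tinagl1 (-2.37), the laminin chain gene Lamb2 (-0.99) and Efemp1 (-0.94), with adjusted p = 0.000281, 7.84e-05 and 0.000513 by edgeR.

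In differentiated IFE-like against resting basal-like classes, 7 of 61 (11.5%) rose and 35 (57.4%) fell, beside 33.3% and 27.9% of all genes tested, and the median was -1.17 against 0.04. Basement membrane genes fell in 9 of 12 tested and matricellular genes in 5 of 6. Cyr61 fell from 65.6 to 3.73 CPM (log2 fold change -3.93, SE 0.37, adjusted p = 1.23e-08), Fbln2 from 37.5 to 1.87 CPM (-3.72, SE 0.27, adjusted p = 2.68e-10), the thrombospondin gene Thbs1 from 19.9 to 1.33 CPM (-3.67, SE 0.40, adjusted p = 1.26e-07) and the collagen-modifying lysyl hydroxylase gene Plod1 from 20.8 to 1.42 CPM (-3.45, SE 0.27, adjusted p = 8.83e-10). Mmp2, a gelatinase, rose from 6.53 to 46.5 CPM (3.60, SE 0.19, adjusted p = 1.90e-12) and Sdc1, a syndecan, from 117 to 236 CPM (1.32, SE 0.10, adjusted p = 5.21e-10). Nid1 was called on 13 and 20 UMIs (1.85, SE 0.62, adjusted p = 0.0150). Fbln1 was called at 0.41 (edgeR adjusted p = 0.00807) with equal summed levels, 50.5 and 50.4 CPM. Averaged over the classes, its differences of log2(CPM + 10) were only 0.195 in mouse 1 and 0.045 in mouse 2. The source of the larger edgeR value was not tested.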

How the data were processed

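Single-cell RNA-seq (10x Genomics 3′ libraries, 1 per mouse) was analysed from the counts of UMIs per gene and barcode that the authors deposited, made per the labels with Cell Ranger 3.0.2 on mm10. The labels and the methods name different chemistry versions. The deposited barcodes come before the filter on genes and mitochondrial share. The lists of genes and barcodes carry no measurement, and depth per library is given with the results.

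The gene and mitochondrial limits of the study's methods were applied (900 to 7700 genes, mitochondrial UMIs below 10%). Mice were integrated by canonical correlation (Seurat 5.3.0 under R 4.3.3) on 2000 variable genes, 30 dimensions and resolution 0.8, with the 8 genes and 97 other matrix genes left out. Clusters were named from fixed marker lists. The limits for naming and the doublet score limit of 0.2 (scanpy 1.11.5, Python 3.11.15) were set after the data were seen. Doublet scores passed it in 2.47% and 4.21% of cells, which were kept. CPM is the summed count over all UMIs of the cells, scaled alike, and counting error was taken as Poisson. Differences are of log2(CPM + 10), per mouse.

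The 8 genes and the lists were chosen with earlier results of these data known, and clusters of the study may be bounded otherwise. Only the other matrix genes were tested, with edgeR 4.0.16 (quasi-likelihood, Benjamini-Hochberg over all genes tested) on 24 sums of 12 KC classes and 2 mice, with a threshold of 0.05. The test was tried on simulated counts with the same mean profile in all classes, apart from the genes changed, and no mouse effect. The real sums differ between classes and pair by mouse, which that check does not cover. Named were the 8 genes, for each comparison up to 4 matrix genes with the largest rise and 4 with the largest fall moving alike in both mice, the 4 genes most like each of the 8, among genes at 20 CPM or more in a class, and the fibroblast markers. A gene of the most-like set and a cluster's leading gene are not reported here. Every class sum of mouse 1 is from 1 animal and likewise for mouse 2, so sums pair by mouse (median correlation of deviations 0.125 over 66 pairs of classes). Alternatives were no integration, resolution 1.2, matrix genes kept in the clustering, cells under 5% mitochondrial UMIs, doublets left out, means of log-normalized cells, cells thinned to 3000 UMIs, CPM + 1, RLE size factors, no filter on low counts, DESeq2 1.42.0, a replicate block and each mouse left out, and, chosen after seeing the data, shared barcodes left out. The figures were drawn with matplotlib 3.10.9.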

Additional observations from a re-analysis of the deposited data

Results flagged for a closer look

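Barcodes that the filters removed also held UMIs of all 8 genes. They are given because they lie outside the comparisons, and nearly any detected gene would be above the few counts that this asks for. In the 2777 and 3315 barcodes with 10% or more mitochondrial UMIs, the mean levels of the mice were 225 CPM for Dcn, 18.4 for Bgn, 129 for Postn, 60.7 for Tgfbi, 117 for Sparc, 85.0 for Smoc2, 116 for Fn1 and 97.9 for Htra1. In the 394 and 630 barcodes with under 900 genes and under 10% mitochondrial UMIs, they were 295 CPM for Dcn, 164 for Bgn, 180 for Postn, 67.6 for Tgfbi, 664 for Sparc, 66.5 for Smoc2, 92.1 for Fn1 and 85.7 for Htra1. Sparc, Bgn and Postn in the second set lay above their levels over all kept cells, which were 166 and 205 CPM for Sparc, 44.3 and 43.7 CPM for Bgn and 102 and 105 CPM for Postn, and Fn1 lay slightly above (88.9 and 95.2 against 86.8 and 85.5 CPM). Which cells these barcodes came from was not tested.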

How the results depend on the processing

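Of 288 recomputed differences between classes, 208 stayed within 1 SD of the mice, 79 moved further with the same sign, and Postn reversed once, to 0.31 for H19-low minus H19-high with cells under 5% mitochondrial UMIs. That limit left 17 and 111 H19-high and 43 and 217 H19-low basal-like cells. For Dcn, H19-low minus H19-high was 1.23 without integration, 1.82 at resolution 1.2, 1.79 with the matrix genes kept in the clustering and 2.29 under 5% mitochondrial UMIs. The Sparc difference there was -0.85, -0.86 and -1.09 without integration, at resolution 1.2 and under 5% mitochondrial UMIs. For Fn1, follicle-like minus resting basal-like was 3.65 without integration, 2.25 under 5% mitochondrial UMIs and 3.41 with CPM + 1. For Sparc, differentiated IFE-like minus resting basal-like was -4.23 without integration, -4.29 at resolution 1.2, -4.25 with the matrix genes kept, -4.28 with doublets left out, -4.30 under 5% mitochondrial UMIs and -4.86 with CPM + 1. For Dcn, dermal-like minus H19-low basal-like was -3.22 with doublets left out and -2.52 with shared barcodes left out. Leaving out each mouse gave 1.30 to 1.46, -0.91 to -0.87, 2.84 to 3.00, -4.22 to -4.19 and -2.43 to -2.03 for these 5 differences. The cause of these shifts was not tested.

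The highest cluster kept its rank in 52 of 56 values. It was second for Dcn with shared barcodes left out and for Postn under 5% mitochondrial UMIs, and ranked 1 to 2 for Dcn and for Sparc when each mouse was left out. Of 36 counts of matrix genes called, 35 stayed within 1.5 times of the value given, and those lower in H19-low cells came to 20 with no filter on low counts. With a replicate block, 24, 53 and 42 matrix genes passed in the 3 comparisons, and calls over all genes between the H19-named states went from 476 higher and 907 lower to 824 and 1418. Tests without a mouse were not run, since 1 sum per class leaves no residual degrees of freedom. At this depth 36 of 97 matrix genes were not tested. Counting intervals and floors cover counting error only.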
